A study of Mus musculus with 32 samples.

Results

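The genes described here are the histone genes of a mouse stroke series, chosen by name: every gene on the array whose array name begins with the terms for the clustered histone genes (Hist1h to Hist4h) or for the replacement histones (H2af, H3f3 and H1f). The rule found 64 genes, represented by 71 probes, among 18118 gene names on the array. Of these, 55 were clustered and 9 were replacement histones. No measured value entered the rule, though the family was taken up with earlier results of these arrays known, in which H2bc6 stood among the deepest falls of the cortex at 24 h. That fall is included in the counts and plots of the histone genes, but its value is a description and nothing rests on its test.

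Messenger RNA was measured on 32 bead arrays of the Illumina MouseRef-8 V2 design, 4 in each of 8 groups. All groups were wild-type male C57BL/6J mice of 8 to 10 weeks. In the 3 injured groups of each tissue a suture blocked the middle cerebral artery for 2 h, and blood flow then returned for 2, 8 or 24 h (ischaemia and reperfusion, I/R). The sham group received the anaesthetic and the neck incision alone. The right striatum and the right cortex, the side of the infarct, were taken. The labels number 4 replicates a group without saying that each came from a separate mouse, so p-values measure the spread between these samples.

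Histones are the proteins that DNA is wound around. H2A, H2B, H3 and H4 form the core of the nucleosome, and H1 binds the linker between nucleosomes. The clustered genes lie in arrays of near-identical copies and are mostly transcribed in S phase, when new DNA must be packed, and most of their messages end in a stem-loop in place of a poly(A) tail. The replacement genes lie apart, are expressed outside S phase and give polyadenylated messages, and in neurons, which do not divide, their products take over much of the chromatin with age. Per the labels, labelled cRNA was made with a MessageAmp kit, a method that in its standard form primes on poly(A) tails. Some clustered genes also give polyadenylated messages, and how much of each message the kit copied was not tested.

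Of the 55 clustered genes, 53 could be placed through their accession in RefSeq (GRCm38.p6), 44 of them on chromosome 13, 6 on chromosome 3, 2 on chromosome 11 and 1 on chromosome 6. A gene entered a fit when it was detected (detection p under 0.05) by every array of 1 or more groups. In the striatum 38 histone genes passed this filter, in the cortex 39, and over both tissues 40, of which 32 were clustered and 8 were replacement genes. The other 24 passed in no fit, and 15 of them were detected on no array, among them 5 of the 6 clustered H1 genes. At the other end, 35 histone genes were detected on all 32 arrays. Near-identical copies may share signal on a hybridisation array, so a value of a clustered gene may include its paralogs. Probe sequences were not used here, and this was not tested. Levels are normalized log2 intensities, which are compared between arrays for 1 probe and never between probes.

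The striatum arrays had a median raw signal of 57.2 to 103.7 and detected 52.3% to 55.2% of their probes, and the cortex arrays had 70.0 to 88.7 and 49.8% to 54.0%. Each tissue lay on 4 slides of its own, 3 of which held sham arrays. On every slide the 2, 8 and 24 h arrays took the same positions (F, G and H), and sham arrays lay only at A or E. Position therefore cannot be told apart from time, or from injury against sham. One cortex array stood apart at 24 h: without replicate 2, 24.9% of all genes passed the test against sham, compared with 14.0% with it. In the sham mice all 6 oligodendrocyte markers tested were higher in the striatum than in the cortex and 7 of 8 markers of cortical excitatory neurons were lower, while 0 of 8 markers of striatal projection neurons passed. The summed intensity of the striatal markers was 7651 to 14197 in sham striatum and 7943 to 9998 in sham cortex. In bulk tissue, fewer cells of a type and less RNA per cell cannot be told apart.

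Most histone genes did not pass the test at any time, those that did were mostly found at 24 h, as they were among all genes, and more of them were lower than higher. At 2 h after reperfusion 0 histone genes passed the test in the striatum, where 0.180% of all 9984 genes tested did, and 0 in the cortex, where 1.15% of 9681 did. At an unadjusted p under 0.05 there were 6 in each tissue, of 38 histone genes tested in the striatum and 39 in the cortex. Of all genes, 1027 of 9984 in the striatum and 1492 of 9681 in the cortex lay under that cut. At 8 h, 3 of 38 histone genes were lower than sham in the striatum (7.89%, against 3.52% of all genes called in either direction and 1.78% called lower), and 1 of 39 was lower in the cortex (2.56%, against 6.97% and 3.36%). At 24 h the striatum had 4 higher and 6 lower (26.3%, against 17.5%), and the cortex had 1 higher and 5 lower (15.4%, against 14.0%), 1 of the 5 being H2bc6. Among all genes, 9.32% were higher and 8.20% lower in the striatum, and 6.87% higher and 7.16% lower in the cortex. In the cortex the share of histone genes called at 24 h was near that of all genes, as was the share called higher in the striatum (4 of 38).

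**Figure D1:**
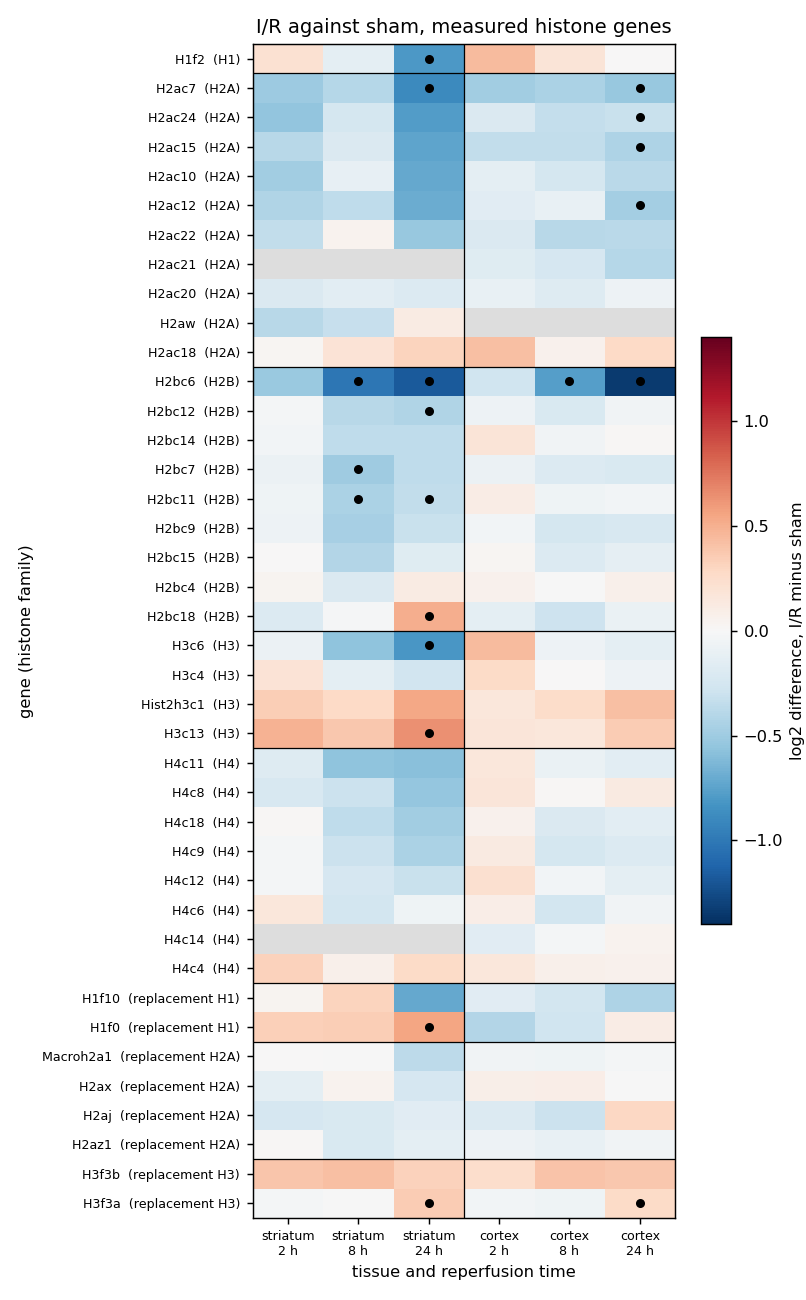
Log2 difference from sham for the histone genes that entered a fit, with 1 row per gene, grouped by histone family, and 1 column per tissue and reperfusion time. Blue is lower and red higher than sham, a dot marks an adjusted p under 0.05, and grey marks a gene that did not enter the fit of that tissue. H2bc6 is blue with a dot at 8 and 24 h in both tissues, while at 24 h most clustered H4 genes are blue in the striatum and pale in the cortex.

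At 24 h in the striatum, 23 of 30 clustered genes measured had a difference below 0, with a median of -0.36 on the log2 scale, and 6 passed as lower and 2 as higher. The 8 replacement genes had a median of -0.15, with 2 passing as higher and 0 as lower. At the same time in the cortex, 22 of 31 clustered genes lay below 0, with a median of -0.13 and 5 passing as lower, while the 8 replacement genes had a median of 0.05 with 1 passing as higher. The median of all genes was -0.02 in the striatum and -0.03 in the cortex. Only genes detected on all arrays of a group could be counted, so these medians describe the genes measured.

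H2bc6 (Hist1h2be on the array), a clustered H2B gene on chromosome 13, had the largest differences from sham of any histone gene at 8 and 24 h. In the cortex its log2 intensity was 7.40, 7.49, 7.26 and 7.28 in the sham arrays, 7.20, 6.95, 6.97 and 7.18 after 2 h of reperfusion, 6.54, 6.50, 6.52 and 6.80 after 8 h, then 6.18, 5.79, 6.03 and 6.04 after 24 h. No 2 of these groups overlapped: every array of a later time lay below every array of the time before it. The gene fell by 0.77 ± 0.12 (SE) at 8 h, to 0.587 of the sham level (limma, adjusted p = 0.00169, n = 4 each), and was lower at 24 h than at 8 h by -0.58 ± 0.12 (adjusted p = 0.00893). At 24 h it stood at -1.35 ± 0.12 against sham, 0.394 of the sham level, the value known beforehand, and the 8 h comparison shares its sham arrays, as the comparison of 24 with 8 h shares its 24 h arrays. The size depended on the background handling. With no background correction the 24 h difference was -0.98 and with an offset of 50 it was -1.005. In the value table of the series matrix it was -0.95. At 8 h these values were -0.59, -0.60 and -0.575. With probes detected on every array (detection p under 0.01) the gene did not enter the cortex fit. At 2 h the difference was -0.28 ± 0.12 (adjusted p = 0.253) and did not pass. In the value table of the series matrix the difference of 24 from 8 h was -0.37 (limma, adjusted p = 0.0686).

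In the striatum H2bc6 had 8.15, 8.19, 7.72 and 7.58 in the sham arrays, 7.34, 7.59, 7.31 and 7.31 after 2 h of reperfusion, 7.09, 7.08, 6.50 and 6.93 after 8 h, then 6.73, 7.21, 6.23 and 6.74 after 24 h. The 8 h and 24 h arrays lay below all sham arrays and overlapped each other. The difference from sham was -1.01 ± 0.19 at 8 h (adjusted p = 0.0119) and -1.18 ± 0.19 at 24 h (adjusted p = 0.0022), while from 8 to 24 h it was -0.17 ± 0.19 (adjusted p = 0.583). In the value table of the series matrix neither call against sham was kept, with the same sign and an adjusted p of 0.21 at 8 h and 0.0552 at 24 h (limma), and without replicate 2 of the sham group the 8 h difference was -0.92 (limma, adjusted p = 0.0515). Each array was placed on the slide whose tissue-table column held identical signals. Within the 3 slides that held both groups, the 24 h difference ranged from -1.44 to -0.51 in the striatum and from -1.47 to -1.23 in the cortex. The 24 h response was not shown to differ between striatum and cortex (striatum minus cortex 0.17 ± 0.23, adjusted p = 0.729).

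**Figure D2:**
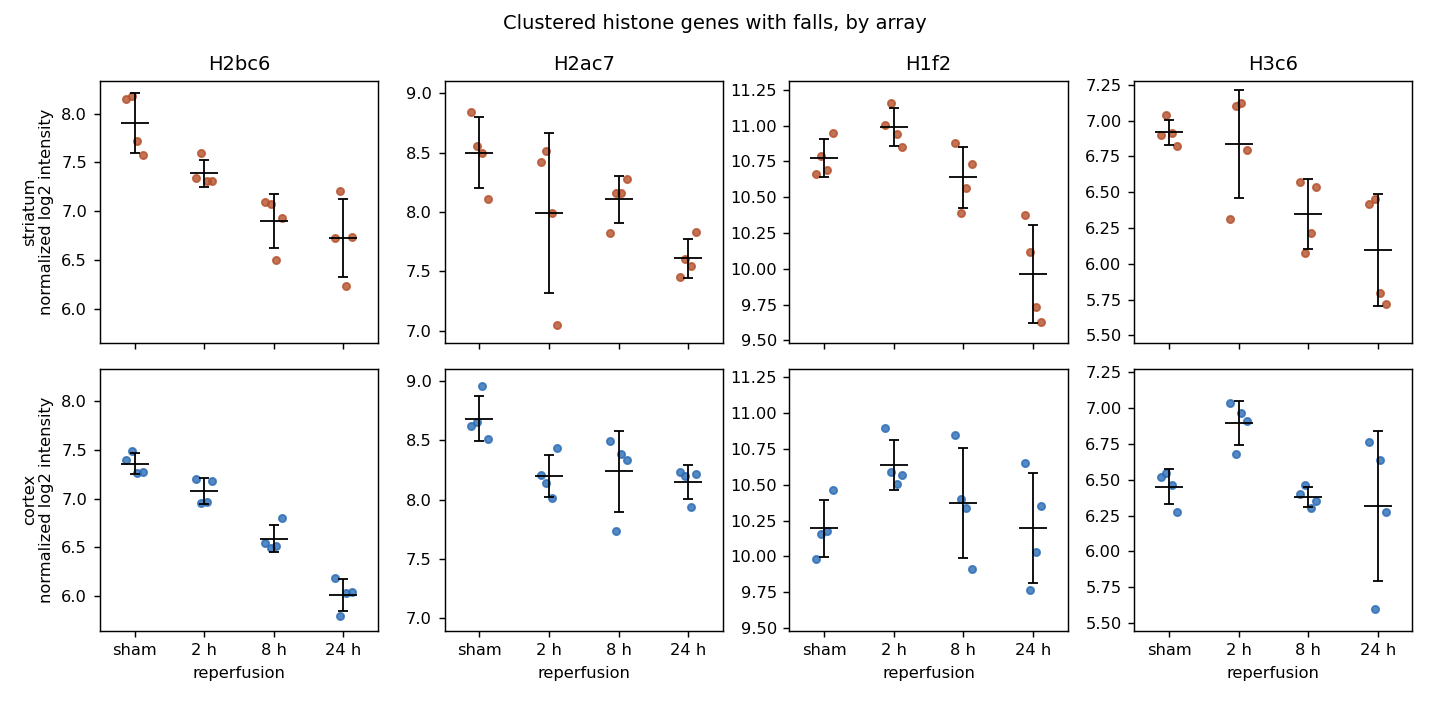
Normalized log2 intensity of 4 clustered histone genes by array, with striatum above and cortex below, at sham and 2, 8 and 24 h of reperfusion. Points are arrays and bars are means with the SD (n = 4). H2bc6 steps down in both tissues, to a mean of 6.73 in the striatum and 6.01 in the cortex at 24 h, whereas H1f2 and H3c6 have their lowest mean at 24 h in the striatum and overlap sham at 24 h in the cortex.

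RefSeq gives H2bc6 a pair of transcription starts on the minus strand of chromosome 13, and both promoter windows are shown because this gene carries the largest change of the family. Each window runs from 250 bases before the start to 50 after it, 5′ to 3′, from RefSeq (GRCm38.p6). Capitals mark the CCAAT box, TATAAA, the letters of the TATA box, and the octamer known from H2B promoters, searched as ATTTGCAT, each on either strand.
H2bc6, chr13:23585921-23586220: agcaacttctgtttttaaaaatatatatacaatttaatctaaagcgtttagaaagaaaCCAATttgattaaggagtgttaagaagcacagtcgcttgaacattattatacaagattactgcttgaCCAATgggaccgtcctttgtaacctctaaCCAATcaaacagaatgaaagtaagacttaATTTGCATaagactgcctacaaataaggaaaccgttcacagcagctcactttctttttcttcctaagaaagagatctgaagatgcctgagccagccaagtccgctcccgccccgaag
H2bc6, chr13:23621045-23621344: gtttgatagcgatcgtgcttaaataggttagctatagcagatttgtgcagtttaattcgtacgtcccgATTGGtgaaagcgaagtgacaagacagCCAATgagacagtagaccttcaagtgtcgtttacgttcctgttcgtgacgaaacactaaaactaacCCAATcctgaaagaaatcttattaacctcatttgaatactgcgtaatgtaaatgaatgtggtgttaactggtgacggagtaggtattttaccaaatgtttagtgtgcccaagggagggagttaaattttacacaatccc
The window with the smaller coordinates holds 3 copies of CCAAT and 1 octamer, at position -67 from the start, and the other holds 3 copies of CCAAT and no octamer or TATAAA. Among all 32851 RefSeq mouse promoter windows of this length, CCAAT occurred in 37.4%, TATAAA in 13.6% and ATTTGCAT in 1.74%. Among the 58 windows of the 57 histone genes that matched, these shares were 81%, 53.4% and 25.9%. A match is a description of the letters and does not show that a factor binds there. The array does not say which start the measured message came from.

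The clustered H2A genes lay mostly below sham at every time in both tissues, and passed against sham at 24 h alone. In the cortex at 24 h, 8 of 9 measured lay below sham, with a median of -0.38, and 4 passed the test, where 7.16% of all genes passed as lower. In the striatum at 24 h 7 of 9 lay below sham with a median of -0.70, and 1 passed, where 8.20% of all genes passed as lower. At 2 h 8 of 9 lay below sham in each tissue, with a median of -0.175 in the cortex and -0.389 in the striatum. At 8 h 8 of 9 did in the cortex (median -0.246) and 7 of 9 in the striatum (median -0.205). In the striatum at 2 h, replicate 4 was the lowest array for 9 of the 10 clustered H2A genes measured in either tissue, and replicate 1 was the lowest at 8 h and again at 24 h for 9 of 10. In the striatum sham group replicate 1 was the highest array for 8 of 10. The same 2 h array was the lowest for 8 of 9 clustered H2B and 8 of 8 clustered H4 genes. The part of these arrays in the medians was not tested. These genes encode almost the same protein and are not independent measurements of the tissue.

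H2ac7 (Hist1h2ad) had 8.84, 8.56, 8.50 and 8.11 in the sham arrays, 8.43, 8.52, 7.99 and 7.05 after 2 h of reperfusion, 7.82, 8.16, 8.16 and 8.28 after 8 h, then 7.46, 7.60, 7.54 and 7.83 after 24 h in the striatum. In the cortex it had 8.62, 8.65, 8.95 and 8.51 in the sham arrays, 8.21, 8.14, 8.01 and 8.44 after 2 h of reperfusion, 8.49, 7.74, 8.38 and 8.34 after 8 h, then 8.24, 8.20, 7.94 and 8.22 after 24 h. All 24 h arrays lay below all sham arrays in both tissues. It fell by 0.89 ± 0.24 in the striatum (adjusted p = 0.0181) and by 0.53 ± 0.15 in the cortex (adjusted p = 0.0236) at 24 h. With an array left out in turn, the call was kept in 6 of 8 fits in the striatum and 5 of 8 in the cortex. At 2 h the cortex difference was -0.48 ± 0.15 with no overlap, and it did not pass (adjusted p = 0.111).

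H2ac12 (Hist1h2ah) had 7.69, 7.74, 7.62 and 7.70 at 24 h in the cortex, against 8.21, 8.32, 8.04 and 8.08 in sham. The 24 h arrays lay close together and below all sham arrays, a fall of 0.47 ± 0.11 (adjusted p = 0.00906), and they also lay below the 8 h arrays, by -0.37 ± 0.11 (adjusted p = 0.0452). H2ac15 (Hist1h2ak) had 8.42, 8.38, 7.99 and 7.97 at 24 h, against 8.50, 8.66, 8.84 and 8.49 in sham, and fell by 0.43 ± 0.13 (adjusted p = 0.0371) without overlap. H2ac24 (Hist1h2ao) had 10.60, 10.65, 10.23 and 10.63 at 24 h, against 10.91, 10.95, 10.81 and 10.68 in sham, and fell by 0.31 ± 0.10 (adjusted p = 0.04996), also without overlap. That p lies just under the threshold. With an array left out in turn, the call against sham was kept in 8 of 8 fits for H2ac12, 3 of 8 for H2ac15 and 2 of 8 for H2ac24, and that of H2ac12 against 8 h in 2 of 8. With other settings that of H2ac24 was kept in 4 of 12. In the striatum at 24 h the differences were -0.70 ± 0.29 for H2ac12 (adjusted p = 0.103), -0.74 ± 0.29 for H2ac15 (adjusted p = 0.0815) and -0.79 ± 0.28 for H2ac24 (adjusted p = 0.0563), and none of the 3 passed. With only the sham and 24 h groups in the fit, each of the 3 passed (adjusted p = 0.0358 for H2ac12, 0.0412 for H2ac15 and 0.024 for H2ac24). Of the clustered H2A genes, H2ac18 (Hist2h2aa1) had a positive 24 h difference in both tissues, 0.31 in the striatum and 0.28 in the cortex, and neither passed, though with slide as a block the striatum difference was 0.45 (limma, adjusted p = 0.0415). H2aw (Hist3h2a) was detected on all 4 striatum arrays at 24 h, on 2 of 4 in striatum sham, and on 0 of 4 in every other group.

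Without replicate 2 of the 24 h cortex group, 10 histone genes passed in the cortex, 3 higher and 7 lower, and 6 of the lower ones were clustered H2A genes. The share of all genes that passed rose as well, to 24.9% from 14.0% with that array. H2ac10 (-0.42, adjusted p = 0.0267) and H2ac22 (-0.43, adjusted p = 0.0484) joined the 4 named above. With that array their differences were -0.38 (adjusted p = 0.052) for H2ac10 and -0.38 (adjusted p = 0.089) for H2ac22. Other arrays moved the count the other way. Without replicate 3 of the 24 h group 2 histone genes passed, H2ac12 and H2bc6, where 11.9% of all genes did. Without replicate 4 of the 24 h group or replicate 1 of sham 3 passed, H2ac7, H2ac12 and H2bc6, where 8.10% and 7.76% of all genes did. Without replicate 2 of sham 3 passed, H2ac11 (-0.74), H2ac12 and H2bc6, where 8.10% of all genes did. H2ac11 was detected on 3 of 4 cortex sham arrays and on 0 of 4 at 24 h. It entered that fit only through the remaining sham arrays, the group where it was high, so nothing rests on its test.

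Several H2A and H2B genes stand head to head, with a shared stretch of DNA between their starts. Among the histone genes with a RefSeq window, 6 divergent H2A and H2B pairs had overlapping windows, and both genes were measured in 3 of them. For H2ac7 with H2bc7 the differences from sham at 24 h were -0.89 and -0.36 in the striatum, and -0.53 and -0.22 in the cortex. For H2ac12 with H2bc12 they were -0.70 and -0.42 in the striatum, and -0.47 and -0.04 in the cortex. For H2ac15 with H2bc15 they were -0.74 and -0.17 in the striatum, and -0.43 and -0.13 in the cortex. In each of these the H2A gene had the lower value, and the difference within a pair was not tested. At 8 h in the striatum the H2B gene had the lower value in each pair, with -0.40 for H2ac7 and -0.50 for H2bc7, -0.36 for H2ac12 and -0.39 for H2bc12, and -0.20 for H2ac15 and -0.41 for H2bc15. In the cortex at 8 h the H2A gene had the lower value in 2 of the 3 pairs, and at 2 h it had the lower value in all 3 pairs in both tissues.

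**Figure D3:**
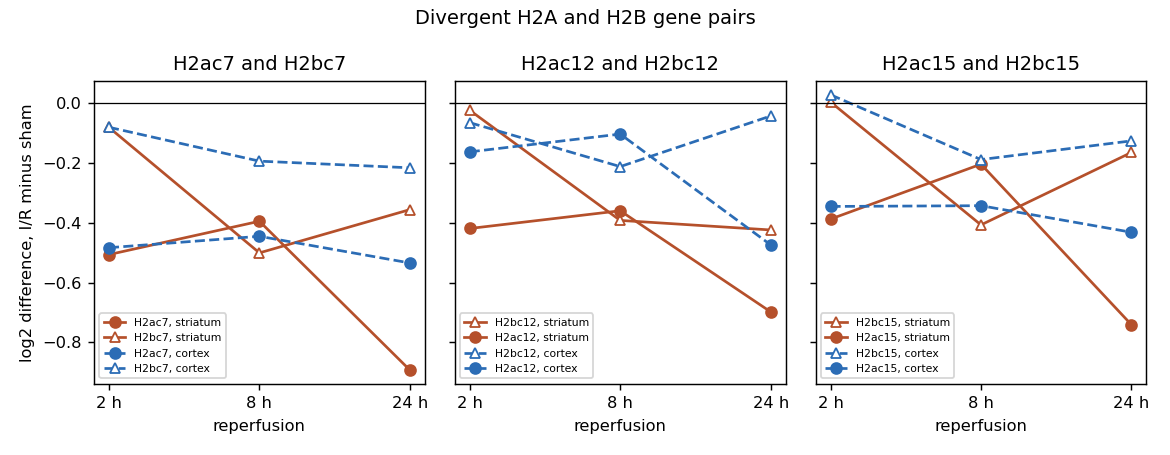
Log2 difference from sham at 2, 8 and 24 h of reperfusion for the 3 divergent gene pairs, filled circles for H2A genes and open triangles for H2B genes, with striatum as solid and cortex as dashed lines. At 24 h each H2A gene lies below its H2B partner in both tissues, and in the striatum at 8 h each lies above it.

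The shared promoters of 2 of these pairs are shown from the H2A side, with the same capitals, since each window spans the stretch between the starts of both partners.
H2ac7 with H2bc7, chr13:23574131-23574430, plus strand: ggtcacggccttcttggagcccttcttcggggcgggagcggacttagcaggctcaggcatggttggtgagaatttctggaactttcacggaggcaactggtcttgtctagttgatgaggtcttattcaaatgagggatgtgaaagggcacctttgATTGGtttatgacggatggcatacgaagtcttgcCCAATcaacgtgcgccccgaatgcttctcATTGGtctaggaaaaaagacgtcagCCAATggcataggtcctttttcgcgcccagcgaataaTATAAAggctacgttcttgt
H2ac12 with H2bc12, chr13:22035594-22035893, minus strand: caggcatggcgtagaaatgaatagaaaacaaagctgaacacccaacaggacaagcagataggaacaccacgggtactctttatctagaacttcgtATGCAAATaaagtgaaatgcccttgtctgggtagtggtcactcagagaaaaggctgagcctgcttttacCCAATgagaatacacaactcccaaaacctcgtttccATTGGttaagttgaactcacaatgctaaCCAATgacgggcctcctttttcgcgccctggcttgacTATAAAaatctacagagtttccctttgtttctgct
The windows of H2ac7 and H2bc7 share 273 bases and those of H2ac12 and H2bc12 share 277. The H2ac7 window holds 4 copies of CCAAT and 1 TATAAA, and the H2ac12 window holds 3 copies of CCAAT, 1 TATAAA and 1 octamer, at position -155 from the H2ac12 start. The TATAAA lies after the start that RefSeq gives the H2A gene, by 30 bases in H2ac7 and by 15 in H2ac12.

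Of the other clustered H2B genes, 2 were lower at 8 h in the striatum. All 9 measured H2B genes lay below sham there, with a median of -0.41, and in 7 of 9 all I/R arrays lay below all sham arrays, as did 7.02% of all genes. H2bc7 (Hist1h2bf) had 9.99, 9.81, 9.53 and 9.80 at 8 h, against 10.47, 10.14, 10.26 and 10.25 in sham, a fall of 0.50 ± 0.12 (adjusted p = 0.0303). H2bc11 (Hist1h2bj) had 9.59, 9.34, 9.20 and 9.38 at 8 h, against 9.95, 9.81, 9.85 and 9.70 in sham, a fall of 0.45 ± 0.11 (adjusted p = 0.0272). Neither gene overlapped with sham. At 24 h H2bc11 was lower by -0.34 ± 0.11 (adjusted p = 0.0346) and H2bc12 (Hist1h2bk) by -0.42 ± 0.13 (adjusted p = 0.0318), while H2bc7, at -0.36 ± 0.12, did not pass (adjusted p = 0.0517). The 8 h call of H2bc7 was kept in 1 of 8 fits with an array left out and that of H2bc11 in 2 of 8, as were the 24 h calls of H2bc11 and H2bc12. Without replicate 2 of the striatum sham group 0 histone genes passed at 8 h, where 0.790% of all genes did. In the cortex the 8 h median of the same 9 genes was -0.20, and H2bc6 alone passed.

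H2bc18 (Hist2h2bb) went the other way. In the striatum it had 7.83, 7.96, 7.53 and 7.51 at 24 h, against 7.09, 7.50, 6.89 and 7.31 in sham, and all 24 h arrays lay above all sham arrays by a narrow margin. It rose by 0.51 ± 0.16 against sham (adjusted p = 0.0385) and by 0.53 ± 0.16 against 8 h (adjusted p = 0.038). The call against sham was kept in 4 of 8 fits with an array left out and in 7 of 12 settings, and that against 8 h in 3 of 8 and 7 of 12. With slide as a block neither passed (limma, adjusted p = 0.0606 against sham and 0.0545 against 8 h). In the cortex its 24 h difference was -0.10. The 24 h responses of striatum and cortex were not shown to differ (striatum minus cortex 0.61 ± 0.24, adjusted p = 0.155).

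H1f2 (Hist1h1c), the linker histone H1.2 and the only clustered H1 gene measured, fell late in the striatum. It had 10.66, 10.79, 10.69 and 10.95 in the sham arrays, 11.00, 11.16, 10.94 and 10.85 after 2 h of reperfusion, 10.88, 10.39, 10.56 and 10.73 after 8 h, then 10.37, 10.12, 9.73 and 9.63 after 24 h. The 24 h arrays lay below all others. The fall was 0.81 ± 0.14 against sham, to 0.571 of its level (adjusted p = 0.00282), and 0.68 ± 0.14 against 8 h (adjusted p = 0.00784). In the cortex it had 9.98, 10.16, 10.18 and 10.47 in the sham arrays, 10.90, 10.59, 10.51 and 10.57 after 2 h of reperfusion, 10.85, 10.40, 10.34 and 9.91 after 8 h, then 10.65, 9.76, 10.03 and 10.35 after 24 h. There the 2 h arrays lay above all sham arrays (0.44 ± 0.18, adjusted p = 0.244) and the 24 h arrays overlapped sham (0.00 ± 0.18, adjusted p = 0.992). The 24 h response was -0.81 ± 0.25 (striatum minus cortex), the smallest p of any histone gene in the 24 h test of tissue responses, and it did not pass (adjusted p = 0.0727).

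The clustered H3 genes split. H3c6 (Hist1h3e) had 6.42, 6.46, 5.79 and 5.72 at 24 h in the striatum, against 6.90, 7.04, 6.91 and 6.82 in sham, a fall of 0.82 ± 0.20 without overlap (adjusted p = 0.0109). With no background correction the difference was -0.57, and with an offset of 50 it was -0.59. H3c13 (Hist2h3b) had 10.57, 9.90, 10.50 and 9.86 at 24 h, against 9.50, 9.66, 9.42 and 9.67 in sham, a rise of 0.64 ± 0.18 (adjusted p = 0.0201), also without overlap, kept in 4 of 8 fits with an array left out. Hist2h3c1 had 10.53, 9.73, 10.33 and 9.57 at 24 h, against 9.26, 9.50, 9.62 and 9.60 in sham, a difference of 0.54 ± 0.20 that did not pass (adjusted p = 0.0646). Replicates 1 and 3 were the high arrays for both H3c13 and Hist2h3c1. The other probe of Hist2h3c1, detected on 26 of 32 arrays, had a 24 h difference of -0.88 in the striatum, opposite in sign to the brighter probe that was used, so for this gene the direction depends on the probe. In the cortex H3c6 had 6.77, 5.60, 6.63 and 6.27 at 24 h, against 6.52, 6.55, 6.46 and 6.28 in sham, with overlap, and H3c13 had a difference of 0.35 ± 0.21 (adjusted p = 0.271). With slide as a block H3c13 passed in the cortex at 24 h (0.51, limma, adjusted p = 0.018), and Hist2h3c1 passed in the striatum (0.62, limma, adjusted p = 0.0335) and in the cortex (0.55, limma, adjusted p = 0.0155).

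In the limma fit over all groups of a tissue, no clustered H4 gene passed against sham at any time. At an unadjusted p under 0.05 there were 3 of 7 in the striatum at 24 h and 0 of 8 in the cortex at 24 h. Of all genes, 3282 of 9984 in the striatum and 2973 of 9681 in the cortex lay under that cut. In the striatum at 24 h, 6 of 7 measured lay below sham with a median of -0.44, and H4c11 (Hist1h4j) came nearest to passing (-0.58 ± 0.20, adjusted p = 0.0534). H4c11 passed with only the 2 groups in the fit (limma, adjusted p = 0.0416), with probes detected on every array (0.0459) and with the replicate block (0.0347), and H4c9 (-0.44) with only the 2 groups (0.0456). In the cortex 5 of 8 lay below sham with a median of -0.09.

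Among the replacement histones, H3f3a, 1 of the 2 genes for the H3.3 protein that is loaded outside S phase, rose late in both tissues. In the striatum it had 10.85, 10.61, 10.63 and 10.62 in the sham arrays, 10.66, 10.72, 10.62 and 10.57 after 2 h of reperfusion, 10.58, 10.72, 10.64 and 10.75 after 8 h, then 10.94, 11.12, 10.99 and 11.09 after 24 h. In the cortex it had 10.54, 10.41, 10.73 and 10.65 in the sham arrays, 10.60, 10.43, 10.68 and 10.49 after 2 h of reperfusion, 10.38, 10.52, 10.61 and 10.57 after 8 h, then 10.94, 10.73, 10.96 and 10.77 after 24 h. The 24 h arrays lay above all others in both tissues, in the cortex by a narrow margin. The rise was 0.36 ± 0.08 against sham in the striatum, 1.28-fold (adjusted p = 0.00795), and 0.27 ± 0.09 in the cortex, 1.2-fold (adjusted p = 0.0458). Against 8 h it was 0.36 ± 0.08 in the striatum (adjusted p = 0.0103) and 0.33 ± 0.09 in the cortex (adjusted p = 0.029). The cortex call against 8 h was kept in 4 of 8 fits with an array left out and in 8 of 12 settings. The cortex call against sham was kept in 2 of 8 fits with an array left out and in 5 of 12 settings. Under median scaling that difference was 0.17 (limma, adjusted p = 0.354). In the striatum the call against sham was kept in 11 of 12 settings and that against 8 h in 9 of 12, and both in 8 of 8 fits with an array left out. Within the 3 slides, the difference from sham ranged from 0.21 to 0.50 in the striatum and from 0.003 to 0.47 in the cortex.

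The second H3.3 gene, H3f3b, had a positive difference at every time in both tissues and passed at none in the fit without a block. In the striatum it had 12.19, 11.66, 12.15 and 11.57 at 24 h, against 11.23, 11.61, 11.71 and 11.73 in sham (0.32 ± 0.16, adjusted p = 0.169). In the cortex it had 12.19, 11.06, 11.52 and 11.69 at 24 h, against 11.32, 11.31, 11.18 and 11.14 in sham (0.37 ± 0.19, adjusted p = 0.185). The groups overlapped in both tissues. Without replicate 2 of the 24 h cortex group the difference was 0.56 ± 0.17 and passed (adjusted p = 0.0211). With slide as a block it passed in the cortex at 8 h (0.49, limma, adjusted p = 0.0414) and at 24 h (0.47, limma, adjusted p = 0.0296).

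**Figure D4:**
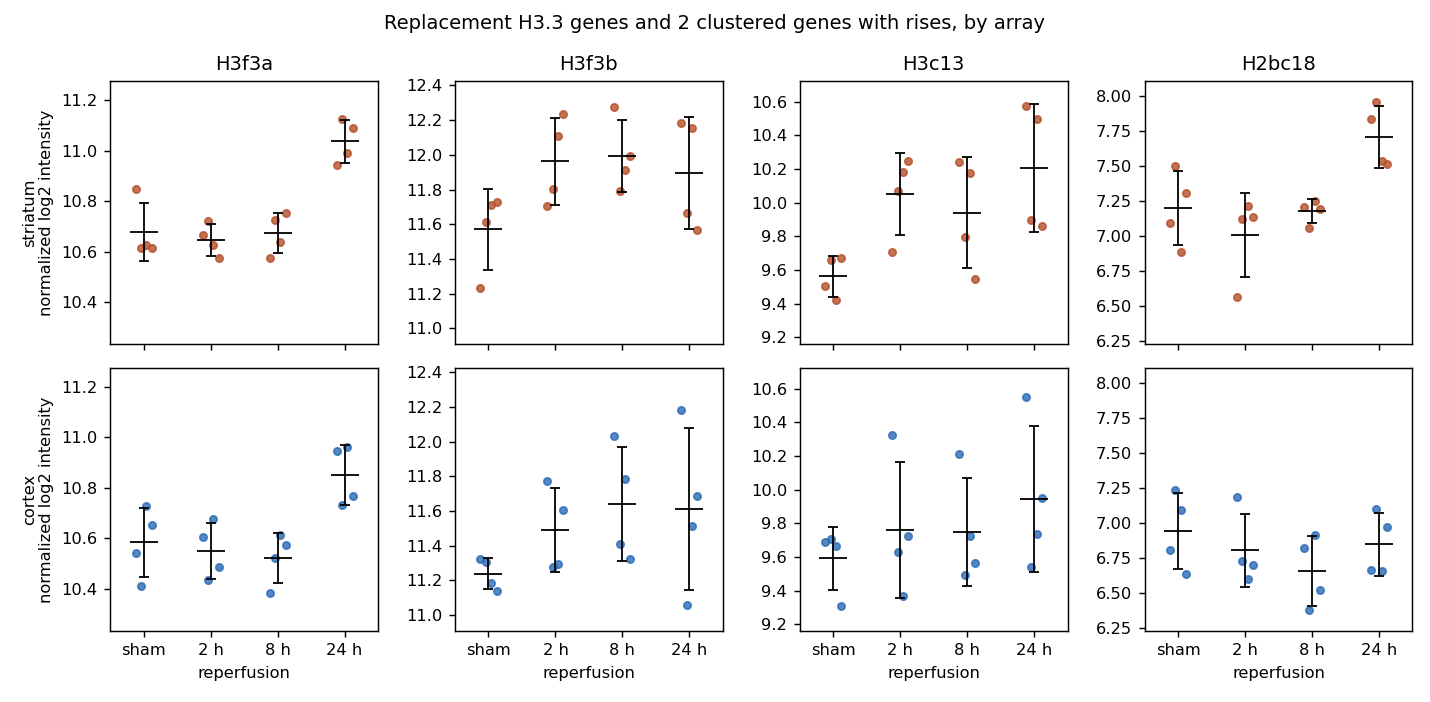
Normalized log2 intensity of both H3.3 genes and of the clustered genes H3c13 and H2bc18 by array, with striatum above and cortex below, at sham and 2, 8 and 24 h of reperfusion. Points are arrays and bars are means with the SD (n = 4). H3f3a has overlapping arrays through 8 h and is higher at 24 h in both tissues, whereas H2bc18 is higher at 24 h in the striatum alone by its means.

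The promoter of H3f3a is shown for contrast with the clustered genes, in the same form and with the same capitals.
H3f3a, chr1:180813556-180813855, minus strand: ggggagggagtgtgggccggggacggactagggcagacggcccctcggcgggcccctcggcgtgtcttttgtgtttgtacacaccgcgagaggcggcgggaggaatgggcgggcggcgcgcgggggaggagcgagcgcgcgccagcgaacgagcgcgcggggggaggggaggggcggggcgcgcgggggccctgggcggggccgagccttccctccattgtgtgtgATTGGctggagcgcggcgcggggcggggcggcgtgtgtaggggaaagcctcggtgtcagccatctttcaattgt
It holds 1 CCAAT, on the reverse strand, and no TATAAA or octamer.

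None of the 4 H2A variants passed against sham. At 24 h in the striatum H2az1, the H2A.Z gene, differed by -0.14 ± 0.08 (adjusted p = 0.273), and H2ax, whose protein is marked at DNA breaks, by -0.23 ± 0.15 (adjusted p = 0.308). Macroh2a1 had 9.63, 9.75, 9.64 and 9.79 at 24 h in the striatum, against 10.04, 10.03, 10.07 and 10.15 in sham. The groups did not overlap, and the difference of -0.37 ± 0.13 did not pass (adjusted p = 0.0645), though it did with only the 2 groups in the fit (limma, adjusted p = 0.0137). H2aj had 7.42, 7.62, 7.51 and 7.64 at 24 h in the cortex, against 7.01, 7.02, 6.70 and 7.06 at 8 h, and was higher by 0.60 ± 0.12 (adjusted p = 0.00677). Against sham its cortex difference at 24 h was 0.29 ± 0.12 and did not pass (adjusted p = 0.0954).

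Of the replacement H1 genes, H1f0, the H1.0 gene of cells that have left the cycle, had 8.01, 7.40, 7.95 and 7.48 at 24 h in the striatum, against 6.68, 7.28, 7.22 and 7.44 in sham. The groups overlapped, and the rise of 0.56 ± 0.19 passed (adjusted p = 0.0483), and was kept in 3 of 8 fits with an array left out. H1f10 had 6.79, 6.86, 6.78 and 6.97 at 24 h in the striatum, against 7.32, 7.29, 8.99 and 7.91 at 8 h, and replicate 3 at 8 h was the highest. It fell by 1.03 ± 0.26 (adjusted p = 0.0177). Without that array the difference was -0.66 (limma, adjusted p = 0.0224), and in the value table of the series matrix -0.62 (limma, adjusted p = 0.105). Against sham, with 7.62, 7.70, 7.47 and 7.48, the 24 h arrays did not overlap, and the difference of -0.72 ± 0.26 did not pass (adjusted p = 0.0614), though it did with only the 2 groups in the fit (limma, adjusted p = 0.0065). The other probe of H1f10 had the same sign at 24 h, -0.53 in the striatum and -0.49 in the cortex.

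Between successive times, 0 histone genes passed from 2 to 8 h in either tissue, where 0.901% of all genes did in the striatum and 0.671% in the cortex. At an unadjusted p under 0.05 there were 12 of 38 in the striatum and 7 of 39 in the cortex. Of all genes, 1451 of 9984 in the striatum and 1301 of 9681 in the cortex lay under that cut. From 8 to 24 h, 2 were higher and 2 lower in the striatum (10.5%, against 13.6%) and 2 higher and 2 lower in the cortex (10.3%, against 6.62%). These were H3f3a and H2bc18 (higher) and H1f2 and H1f10 (lower) in the striatum, and H3f3a and H2aj (higher) and H2bc6 and H2ac12 (lower) in the cortex. The call of H2bc6 uses the 24 h cortex arrays of the fall known beforehand, so nothing rests on its part in the cortex count.

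Between sham striatum and sham cortex, 5 of 40 histone genes were higher and 2 lower in the striatum (17.5%, against 26.6% of all 10201 genes). No slide held arrays of both tissues, so tissue and slide cannot be told apart in this comparison. H4c8 (Hist1h4h) differed most, with 8.05, 8.24, 8.25 and 8.20 in sham striatum, against 7.19, 7.25, 7.29 and 7.36 in sham cortex, 0.91 ± 0.19 higher and without overlap (adjusted p = 0.000709). H1f2 was higher by 0.58 ± 0.17 (adjusted p = 0.0132), H2bc6 by 0.55 ± 0.16 (adjusted p = 0.0116), H2bc11 by 0.32 ± 0.10 (adjusted p = 0.0193) and H2bc14 (Hist1h2bm) by 0.30 ± 0.11 (adjusted p = 0.0355), each without overlap. The 2 lower genes, H2ac21 (Hist2h2ab) and H4c14 (Hist2h4), were dim, each detected on 1 of 4 sham striatum arrays and 3 of 4 sham cortex arrays. They differed by -0.56 ± 0.17 (adjusted p = 0.014) and -0.32 ± 0.11 (adjusted p = 0.0367). Both entered the fit only through cortex groups after reperfusion, from the tissue where they were higher. Nothing therefore rests on their tests or on their part in the count. With no background correction the 2 differences were -0.33 and -0.19, and with an offset of 50 they were -0.32 and -0.17. With an array left out in turn, the call of H4c8 was kept in 8 of 8 fits, those of H1f2 and H2bc6 in 7, those of H2bc11 and H2ac21 in 6, that of H2bc14 in 4 and that of H4c14 in 3. By family, all 9 clustered H2B genes measured had a positive difference, with a median of 0.26, and 8 of 10 clustered H2A genes a negative one, with a median of -0.30. The oligodendrocyte markers were higher in the striatum as well, by 0.27 (Mbp) to 1.32 (Mobp), and their part in these differences was not tested.

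**Figure D5:**
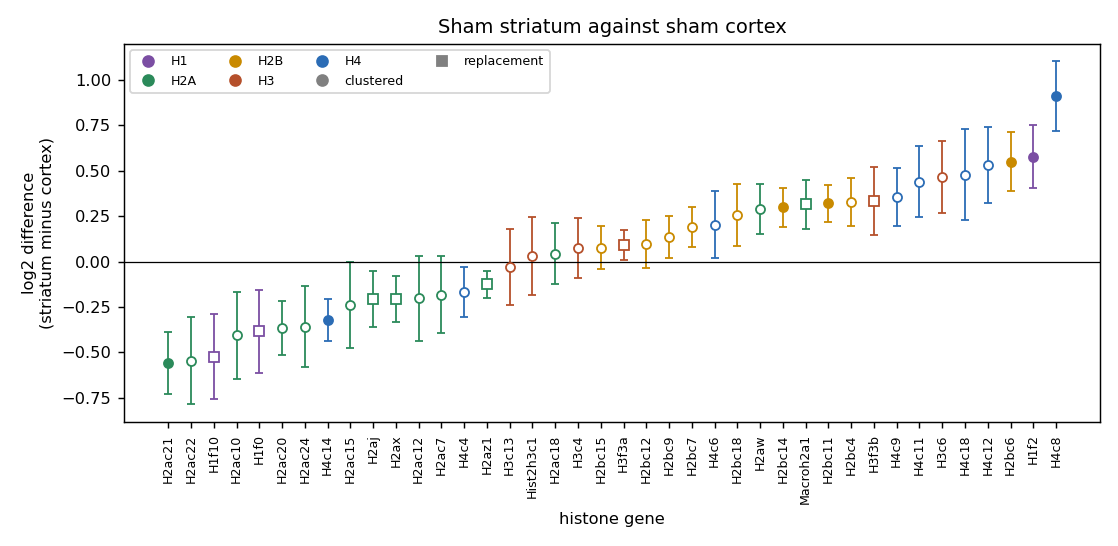
Log2 difference between sham striatum and sham cortex (striatum minus cortex) for 40 histone genes, in ascending order, with bars for the SE of the fit. Filled symbols passed the test, circles are clustered and squares are replacement genes, and colours mark the histone family. H2A genes lie mostly on the low side and H4 and H2B genes mostly on the high side, with H4c8 the highest at 0.91.

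No response differed between the tissues past the threshold. Of 40 histone genes 0 passed at 2, 8 or 24 h, where 0.00%, 0.0196% and 1.74% of all genes did. An unadjusted p under 0.05 was found for 1, 1 and 8 of them, and for 568, 485 and 2005 of all 10201 genes. At 24 h the median of the difference (striatum minus cortex) was -0.17 over the 40 genes and 0.01 over all genes. The largest negative difference was that of H1f2, and the largest positive one was that of H2bc18.

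The genes that make, carry and modify histones were counted as lists chosen with earlier results known. At 24 h, 17.5% of all genes passed in the striatum (9.32% higher, 8.20% lower) and 14.0% in the cortex (6.87% higher, 7.16% lower). Of 9 measured genes for histone transcription and message processing, 2 were lower in the striatum at 24 h, the octamer-binding factor Pou2f1 (-0.63 ± 0.15, adjusted p = 0.0108) and Srrt (-0.45 ± 0.13, adjusted p = 0.0273), and 0 passed in the cortex. Of 25 histone chaperones and deposition genes, 1 was higher and 3 lower in the striatum, among them Vps72 (-0.51 ± 0.15, adjusted p = 0.0305), a subunit of a complex that deposits H2A.Z. In the cortex 1 was higher and 2 lower, among them Atrx (-0.70 ± 0.19, adjusted p = 0.0238), which helps to place H3.3. The shares called, 16% in the striatum and 12% in the cortex, were near those of all genes. Of 18 S phase genes measured in the striatum, 5 were higher and 0 lower at 24 h, led by the replication helicase subunit Mcm6 (1.17 ± 0.21, adjusted p = 0.00282) and by Uhrf1 (0.99 ± 0.22, adjusted p = 0.00721). Of 17 in the cortex 3 were higher, led by Uhrf1 (1.45 ± 0.19, adjusted p = 0.000423), and 2, Ccne1 and Ccne2, were lower. The shares called were 27.8% in the striatum and 29.4% in the cortex.

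Among 16 histone deacetylases, Hdac11 (-0.69 ± 0.13, adjusted p = 0.00319) and Hdac8 (-0.65 ± 0.15, adjusted p = 0.00903) were lower and Hdac6 (0.66 ± 0.21, adjusted p = 0.0381) was higher in the striatum at 24 h, and Hdac11 (-0.31 ± 0.10, adjusted p = 0.0475) was lower in the cortex. The share called in the striatum, 18.8%, was near that of all genes, and in the cortex it was 6.25%. Of 10 acetyltransferases, 0 passed in the striatum and 2 were lower in the cortex, Ncoa1 (-0.46 ± 0.11, adjusted p = 0.0105) and Ep300 (-0.38 ± 0.10, adjusted p = 0.015). Of 9 high mobility group and other chromatin architecture genes, 1 was lower in the striatum, and 2 were higher and 1 lower in the cortex. Of the mitosis genes, 0 of 4 passed in the striatum and 0 of 3 in the cortex.

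Some markers of other cells differed from sham at 24 h, when 17.5% of all genes passed in the striatum and 14.0% in the cortex. Of 6 measured monocyte and macrophage markers, 3 were higher in the striatum and 6 in the cortex. Their summed intensity was 3021 to 11692 at 24 h and 2426 to 3838 in sham in the striatum, and 2720 to 15201 at 24 h and 1589 to 1948 in sham in the cortex. The defining markers Ccr2 and Msr1 were detected on no array. Of 3 measured neutrophil markers, 1 was higher in the striatum and 2 in the cortex, and of 6 endothelial markers 1 and 3 were higher. Of 6 oligodendrocyte markers, 2 were lower in the striatum at 24 h, and of 8 striatal projection neuron markers 1 was lower in the striatum and 6 in the cortex. In the cortex 1 oligodendrocyte marker was higher and 2 of 4 pan-neuronal markers were lower. Of 7 astrocyte markers, 1 was higher and 1 lower in the striatum and 2 were higher in the cortex. Of 7 microglial markers, 1 was higher in the striatum, and 1 was higher and 1 lower in the cortex. At 8 h, 2 of 7 microglial markers were lower in the striatum and 3 of 7 in the cortex, and of 6 endothelial markers 2 were lower in the striatum and 4 in the cortex. Of 7 astrocyte markers, 1 was higher and 1 lower in the striatum at 8 h, and 3 were higher in the cortex. Among all genes 3.52% passed in the striatum at 8 h and 6.97% in the cortex. The part of these cells in the histone differences was not tested.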

How the data were processed

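Total RNA of 32 samples was hybridised to bead arrays. The deposited tables hold un-normalized mean bead intensity per probe or per gene, a detection fraction (1 minus the detection p against negative control beads) and bead numbers (not used for tests), per the file headers, and BeadStudio 3.3.7 is named in the submitters' processing notes. The deposited value table of the series matrix holds a linear ratio per probe around 1, and what it is relative to is not given in the sources used here. It served as an alternative. The striatum table also held 8 columns of 1 further array that matched no sample and were not used.

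Intensities were background-corrected from the detection values with limma 3.58.1 in R 4.3.3 (nec, offset 16), quantile-normalized over 32 arrays and taken to log2. The cortex table gave no detection value per probe for genes with several probes, among them 6 histone genes. On each cortex array the detection p of such probes was interpolated by signal from genes with 1 probe. Genes detected on all 4 arrays of at least 1 group were kept, with the brightest probe per gene. Groups were compared with limma (lmFit, eBayes with a variance trend; all 4 groups of a tissue, or all 8 groups for comparisons between tissues), with Benjamini-Hochberg adjustment over all genes in each of 14 comparisons and a threshold of 0.05. The number of arrays limits the precision. The members and lists were chosen with earlier results of these data known. Per-array values are given for genes called in a comparison and for replacement histones, and from each other list up to 4 called genes with the largest change are named. No 2 arrays held identical values (0 pairs). Replicate numbers follow the sample titles, whereas the array codes in the sample descriptions gave another replicate of the same group for 32 of 32 arrays. Slides were taken from the array codes of the tissue-table columns whose signals were identical. In the cortex table by gene, the background was estimated from genes with 1 probe. Background correction, normalization, filter, source table, samples in the fit, variance model, slide and replicate blocks and leaving out each array were varied.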

Additional observations from a re-analysis of the deposited data

Results flagged for a closer look

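Single arrays stood far from the other 3 of their group in 12 of 192 groups examined (24 histone genes in 8 groups each); the gap to the nearest array, divided by the group's range, exceeded Dixon's 95% critical value. Chance alone gives about 1 in 20. All values are normalized log2 intensities.

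Among the clustered H2A genes, H2ac24 had 10.23 in cortex 24 h replicate 3 (nearest array 10.6), and H2ac7 had 7.94 in the same array (nearest 8.2). Among H2B genes, H2bc6 had 6.8 in cortex 8 h replicate 4 (nearest 6.54) and 7.59 in striatum 2 h replicate 2 (nearest 7.34). H2bc12 had 8.53 in cortex sham replicate 2 (nearest 8.25), and H2bc18 had 6.56 in striatum 2 h replicate 1 (nearest 7.12).

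H3c13 had 9.31 in cortex sham replicate 4 (nearest 9.67), and H4c14 had 5.73 in cortex sham replicate 1 (nearest 5.36). Among the replacement genes, H3f3a had 10.85 in striatum sham replicate 1 (nearest 10.63), and Macroh2a1 had 9.35 in cortex 24 h replicate 2 (nearest 9.82). H2aj had 6.7 in cortex 8 h replicate 3 (nearest 7.01) and 7.1 in striatum 2 h replicate 3 (nearest 6.75).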

How the results depend on the processing

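Of 35 called gene and comparison pairs, 12 were kept in every one of the settings in which the gene could be tested, 12 with every array left out in turn and 6 in both, and 0 changed sign. The 6 were the fall of H2bc6 in the cortex at 24 h, which was known beforehand, H2bc6 in the cortex at 8 h, H2ac12 in the cortex at 24 h, H1f2 and H3c6 in the striatum at 24 h, and H4c8 between the sham tissues. The number of histone genes called depended on the setting in the following cases. Median scaling gave 1 in the striatum at 8 h, 5 at 24 h (1 higher, 4 lower) and 2 from 8 to 24 h. Fitting only the groups compared gave 6 in the striatum at 8 h, 18 at 24 h (2 higher, 16 lower) and 0 from 8 to 24 h, 2 in the cortex at 2 h, 2 at 8 h, 3 at 24 h and 0 from 8 to 24 h, and 18 between the sham tissues. The value table of the series matrix gave 0 in the striatum at 8 h, 3 at 24 h and 0 from 8 to 24 h, and 2 in the cortex from 8 to 24 h. With no detection filter 3 were called in the cortex at 24 h. With probes detected on every array, 0 were called in the cortex at 8 h and 4 between the sham tissues. Quantile normalization within each tissue gave 12 between the sham tissues (11 higher, 1 lower). In the cortex from 2 to 8 h, the tissue tables, the fit without a variance trend and the slide block gave 1 each, and the slide block gave 2 at 8 h against sham. The cause was not tested. The share of all genes called under each setting or block is not given here. These counts therefore describe the calls and are not a result about histone genes.

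With single arrays left out, the striatum counts ranged from 0 to 3 at 8 h, 4 to 12 at 24 h and 2 to 5 from 8 to 24 h. In those striatum fits 0.598% to 3.23% of all genes passed at 8 h and 9.14% to 18.3% at 24 h. The cortex counts ranged from 1 to 2 at 8 h, 2 to 10 at 24 h, 0 to 1 from 2 to 8 h and 2 to 4 from 8 to 24 h. In those cortex fits 2.62% to 9.06% of all genes passed at 8 h and 7.04% to 24.9% at 24 h. The count of histone genes between the sham tissues ranged from 3 to 8, and for the 24 h response difference from 0 to 2. For the comparisons between times, between the sham tissues and of the response difference, the share of all genes is not given here. Those counts therefore describe the calls alone. In the striatum at 24 h the count was 4 without sham replicate 1, 5 without sham replicate 3 and 5 without 24 h replicate 1. At 8 h it was 0 without sham replicate 2 and 1 without sham replicate 1, sham replicate 3 or 8 h replicate 2, 3 or 4. From 8 to 24 h it was 2 without 8 h replicate 4. In the cortex at 24 h it was 10 without 24 h replicate 2, 2 without 24 h replicate 3, and 3 without 24 h replicate 4, sham replicate 1 or sham replicate 2. At 8 h it was 2 without sham replicate 4 or 8 h replicate 4, and 1 from 2 to 8 h without 8 h replicate 4. From 8 to 24 h it was 2 without 8 h replicate 1, 24 h replicate 1 or 24 h replicate 3. Between the sham tissues it was 3 without cortex replicate 1 and 4 without cortex replicate 3, and the 24 h response difference gave 2 without cortex 24 h replicate 2.

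Whether samples are paired cannot be told from the replicate numbers, since the array codes gave other replicates. The median correlation of same-numbered arrays was -0.017 in the striatum (-0.289 to 0.246) and 0.099 in the cortex (-0.155 to 0.411). For other pairs it was -0.015 and -0.053. Within a slide it was 0.058 in the striatum and 0.126 in the cortex, against -0.022 and -0.057 for other pairs. The fits took striatum and cortex as unpaired, and whether they came from the same mice is not known here. With the replicate block, 11 histone genes were called in the striatum at 24 h and 7 in the cortex at 24 h, 4 and 1 at 8 h, 4 in each tissue from 8 to 24 h, 9 between the sham tissues, and 0 elsewhere. The share of all genes called with this block is not given here, so its counts describe the calls alone. The series matrix, the tissue tables and the slide block give no value for the sham tissues. Genes near background, such as H2ac21, H4c14 and H2aw, have levels limited by signal over background. The 24 h differences of H2bc6 in both tissues and of H3c6 in the striatum were also smaller with no background correction.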
